A study of Mus musculus with 3 samples.

Results

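The MAP kinase cascade genes are described here in primary macrophages grown from mouse bone marrow (C57BL/6J) and treated with Lipid A, the part of bacterial lipopolysaccharide that the receptor TLR4 senses, at 100 ng/ml for 30 minutes. RNA of the cytosolic fraction was depleted of ribosomal RNA and sequenced as total RNA in 3 libraries, which the labels call biological replicates 1, 2 and 3 of 1 group. No untreated cells, other times or nuclear RNA are among these 3 libraries, so no value below is a response to Lipid A. Sex and age of the mice were not given, and the labels do not say whether the replicates came from separate mice or cultures, so p-values measure only the spread between these libraries. The genes were every protein-coding gene whose symbol begins with Mapk, Map2k, Map3k or Map4k, apart from Map3k7, Map3k8 and Map3k7cl. There were 51 of them among 55536 annotated genes. They comprised 13 MAP kinases, 7 MAP2Ks, 16 MAP3Ks, 5 MAP4Ks, 3 MAPK-activated kinases and 7 genes named for MAP kinases that are not kinases, which makes 44 kinase genes.

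A MAP kinase cascade passes a signal down a chain of kinases: a MAP3K phosphorylates a MAP2K, and the MAP2K phosphorylates both a threonine and a tyrosine in the activation loop of a MAP kinase. MAP4Ks act on MAP3Ks, and MAPK-activated kinases are substrates of the MAP kinases. In macrophages TLR4 feeds the ERK, JNK and p38 branches, which act on transcription of cytokine genes and on the stability and translation of their mRNAs. These steps are phosphorylations of protein that is already present, so RNA levels show which kinases a cell has transcripts for and not which were active.

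The libraries held 23403552, 50435201 and 35785896 expected counts for replicates 1, 2 and 3. TPM, the deposited level corrected for transcript length and scaled to a fixed sum, was shared with abundant non-coding RNA: nuclear protein-coding genes took 22.3% of the TPM in replicate 1, 34.4% in replicate 2 and 24.3% in replicate 3. A messenger RNA could therefore have a higher TPM in replicate 2 with the same share among messenger RNAs. Levels below are in TPM, and comparisons between libraries use library-scaled counts (CPM, after trimmed-mean scaling), which are not per length. All 10 macrophage markers averaged at least 10 TPM. So did 3 of 6 neutrophil markers, S100a9, Csf3r and S100a8, at 17.3, 15.7 and 10.1 TPM. Of the 5 B-cell markers none did, and Ighm was highest at 5.15 TPM. The 9 stromal markers summed to 268 CPM in replicate 1, 0.262 in replicate 2 and 1.07 in replicate 3, so replicate 1 stood apart. Malat1, a nuclear RNA, had 472, 302 and 788 TPM in replicates 1, 2 and 3. Its spread was wider in library-scaled counts, at 3826, 1284 and 6469 CPM. In bulk RNA, fewer cells of a type and less RNA per cell cannot be told apart.

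Transcripts of every tier of the cascade were present. Of the 51 genes, 38 (74.5%) averaged at least 1 TPM, against 42.7% of the 22015 nuclear protein-coding genes, and 17 (33.3%) averaged at least 10 TPM, against 18.0%. The median gene of the MAP2K tier was at 3.41 ± 0.34 log2(TPM + 1), the MAP kinase tier at 1.99 ± 0.24, the MAP3K tier at 1.78 ± 0.23 and the MAP4K tier at 1.74 ± 0.22 (SD over the 3 libraries), against 0.23 ± 0.02 for all nuclear protein-coding genes. All 7 MAP2Ks and all 5 MAP4Ks were at 1 TPM or more, as were 7 of 13 MAP kinases and 11 of 16 MAP3Ks. Added up, the MAP kinases held 162 ± 36.5 TPM, the MAP3Ks 90.3 ± 19.8, the MAP2Ks 81.6 ± 12.3, the 3 MAPK-activated kinases 76.7 ± 13.8 and the MAP4Ks 34.9 ± 9.40 (SD, n = 3). Together the 51 genes took 0.184%, 0.174% and 0.182% of the protein-coding TPM in replicates 1, 2 and 3.

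**Figure D1:**
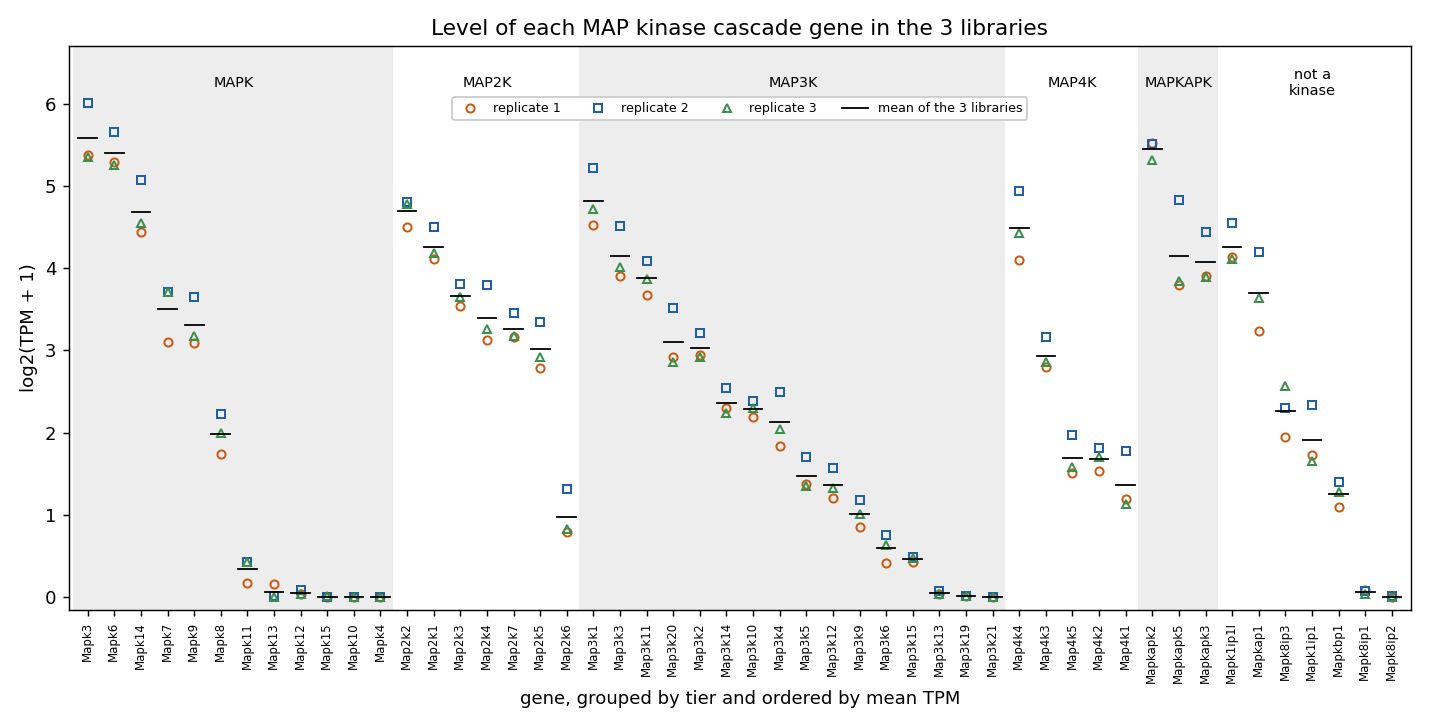
Level of the cascade genes as log2(TPM + 1) in replicates 1, 2 and 3, with a bar at the mean, grouped by tier. Mapk3, Mapkapk2 and Mapk6 have the highest means, and 13 genes average under 1 TPM.

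The branch of a MAP kinase can be read in its coding sequence, which is shown for the kinases whose levels follow. In each stretch 5 codons stand on either side, and capitals mark the 3 codons of the activation-loop motif. They spell threonine, glutamate and tyrosine in the ERK genes Mapk3 and Mapk7, threonine, proline and tyrosine in the JNK genes Mapk8 and Mapk9, and threonine, glycine and tyrosine in the p38 genes Mapk14 and Mapk11. Mapk6, the atypical ERK3, has serine, glutamate and glycine.
Mapk3: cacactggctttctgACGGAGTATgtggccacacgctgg
Mapk7: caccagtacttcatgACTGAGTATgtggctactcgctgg
Mapk9: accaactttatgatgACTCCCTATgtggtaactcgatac
Mapk8: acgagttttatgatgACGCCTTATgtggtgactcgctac
Mapk14: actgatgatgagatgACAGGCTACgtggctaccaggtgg
Mapk11: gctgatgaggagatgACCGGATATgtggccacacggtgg
Mapk6: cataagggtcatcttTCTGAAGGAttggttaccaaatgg
On mm10 these lie at chr7:126763443-126763481 (Mapk3, plus strand), chr11:61491407-61491445 (Mapk7, minus), chr11:49872815-49872853 (Mapk9, plus), chr14:33392988-33393026 (Mapk8, minus), chr17:28728384-28728422 (Mapk14, plus) and chr15:89145851-89145889 (Mapk11, minus). The Mapk6 stretch, chr9:75395622-75397584 on the minus strand, is joined across an intron, and the others each lie in 1 coding exon. In Mapk8 the capitals begin at codon 183, and in Mapk14 at codon 180, counted from the start codon.

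Mapk3, which encodes ERK1, had 40.4, 63.5 and 39.9 TPM in replicates 1, 2 and 3 (47.9 ± 13.5), rank 850 by mean among nuclear protein-coding genes. Mapk7, which encodes ERK5, had 7.55, 12.1 and 12.1 TPM, lower than Mapk3 in every library.

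Mapk6, the gene of the atypical kinase ERK3, had 38.0, 49.4 and 37.1 TPM (41.5 ± 6.90), below Mapk3 in every library of the gene table although their ranges overlapped. In the second transcript table Mapk6 had 16.3, 30.4 and 10.2 TPM and Mapk3 15.0, 36.9 and 9.27, so there Mapk6 was the higher in replicates 1 and 3. Mapk4, its close relative ERK4, had no count in any library, which allows up to 0.128, 0.0595 and 0.0838 CPM (3 counts of each library's total). Mapk15, the gene of ERK7/8, had a single count in replicate 3.

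Only 1 of the 4 p38 genes was above 1 TPM. Mapk14, which encodes p38α, had 20.6, 32.6 and 22.4 TPM, highest in replicate 2. Mapk11, which encodes p38β, had 0.13, 0.35 and 0.35 TPM, so Mapk14 stood 159, 93.3 and 64.0 times higher. These ratios are imprecise, because Mapk11 had only 14, 59 and 50 counts. Mapk13 and Mapk12, the genes of p38δ and p38γ, averaged 0.0433 and 0.04 TPM and had at most 5 counts in a library.

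For JNK, Mapk9 (JNK2) was above Mapk8 (JNK1). Mapk9 had 7.50, 11.5 and 8.04 TPM and Mapk8 had 2.35, 3.66 and 2.99 TPM. The ratio was 3.19, 3.15 and 2.69 in the 3 libraries. Mapk10, the JNK3 gene known from neurons, had no count in any library, with the same upper limits as Mapk4. A processed pseudogene inside Mapk8 on the same strand, Gm49037, was given 80.5, 369 and 189 counts, against 378, 759 and 574 for Mapk8, and how reads were shared between them was not tested.

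Of the MAP2Ks, the ERK activators were highest. Map2k2 (MEK2) had 21.6, 26.9 and 26.6 TPM, and Map2k1 (MEK1) had 16.2, 21.6 and 17.1. The level of Map2k1 was 0.751, 0.802 and 0.643 times that of Map2k2, with a log2 ratio of -0.46 ± 0.16. In expected counts the order was the other way round, with a log2 ratio of 0.10. Map2k5, the activator of ERK5, averaged 7.22 ± 1.74 TPM.

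Of the p38 activators, Map2k3 (MKK3) had 10.6, 13.0 and 11.6 TPM. Its relative Map2k6 (MKK6) had 0.73, 1.49 and 0.78 TPM, so Map2k3 was 14.6, 8.70 and 14.8 times higher. In TPM of the gene table the JNK activators did not stand apart from each other. Map2k4 (MKK4) had 7.75, 12.9 and 8.57 TPM and Map2k7 (MKK7) had 7.96, 9.98 and 7.99 TPM. Map2k4 was at 0.974 times Map2k7 in replicate 1, 1.30 in replicate 2 and 1.07 in replicate 3, so the order differed between libraries. In the second transcript table Map2k4 was the higher in every library, at 3.12, 7.85 and 2.17 TPM against 2.31, 5.11 and 1.62. In expected counts, which are not per length, the log2 ratio was 0.40.

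Among the MAP3Ks, Map3k1 (MEKK1, which acts on the JNK branch and is also a ubiquitin ligase) had 22.0, 36.2 and 25.2 TPM. Map3k3 (MEKK3) had 14.0, 21.8 and 15.1 TPM, and Map3k11 (MLK3) had 11.8, 16.0 and 13.6. Map3k20 (ZAK, a sensor of stalled ribosomes) had 6.58, 10.4 and 6.28 TPM and did not stand apart from Map3k2 (MEKK2), which averaged 7.18 ± 0.963.

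The gene of the non-canonical NF-kappaB kinase NIK, Map3k14, averaged 4.16 ± 0.592 TPM. Map3k10 (MLK2) averaged 3.90, Map3k4 (MEKK4) 3.45, Map3k5 (ASK1, which responds to oxidative stress) 1.80, Map3k12 1.60 and Map3k9 (MLK1) 1.02 TPM. Map3k1 was 8.53, 7.82 and 8.06 times Map3k4, the steadiest of the ratios between related kinases computed (log2 ratio 3.02 ± 0.06). Map3k6, Map3k15, Map3k13, Map3k19 and Map3k21 were below 1 TPM, and Map3k21 had a single count in all. Pdha1 overlaps Map3k15, Pcbp2 overlaps Map3k12 and Pcnx3 overlaps Map3k11 on the opposite strand, each with more counts than the kinase in at least 1 library. Whether strand was used in counting was not given, so reads of these overlapping genes may not be told apart.

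Map4k4 (HGK) held 62.8% of the TPM of its tier, with 16.2, 29.6 and 20.6 TPM. Map4k3 (GLK) had 5.93, 7.92 and 6.24 TPM. Map4k5 had 1.84, 2.93 and 2.00 TPM, and Map4k2 had 1.89, 2.52 and 2.27, with overlapping ranges. Map4k1 (HPK1, best known from lymphocytes) had 1.28, 2.42 and 1.20 TPM. Of the T and NK cell markers, Cd3e, Cd3d, Lck and Nkg7 each averaged at most 0.07 TPM, while Il7r averaged 33.4. Map4k4 stood 8.54, 11.7 and 9.06 times above Map4k2.

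The 3 MAPK-activated kinases had a tier median of 4.21 ± 0.54 log2(TPM + 1). It was above the other tier medians over all genes, but below the MAP kinase median of 4.59 when genes under 0.5 TPM were left out. Mapkapk2 (MK2, the p38 substrate that acts on the stability and translation of cytokine mRNA) had 44.9, 44.3 and 38.9 TPM (42.7 ± 3.34). Mapkapk3 (MK3) had 14.0, 20.6 and 13.8 TPM, and Mapkapk2 stood 3.21, 2.15 and 2.82 times above it. Mapkapk5 (MK5, a partner of ERK3) had 12.8, 27.3 and 13.4 TPM.

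Of the 7 genes that are not kinases, Mapk1ip1l had the highest mean, with 16.5, 22.4 and 16.3 TPM. Mapkap1 (SIN1, a subunit of the mTORC2 complex, not of the cascade) had 8.42, 17.4 and 11.5 TPM, lowest in replicate 1. Mapk8ip3 (JIP3, a JNK scaffold and motor adaptor) had 2.84, 3.94 and 4.90 TPM, highest in replicate 3. Mapk1ip1 had 2.31, 4.06 and 2.14 TPM, and Ppp2r2d, which overlaps it on the opposite strand, had 384, 1050 and 557 counts, against 137, 386 and 182 for Mapk1ip1. Mapkbp1 averaged 1.40 TPM. The JNK scaffolds Mapk8ip1 (JIP1) and Mapk8ip2 (JIP2) had at most 10 counts in a library.

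**Figure D2:**
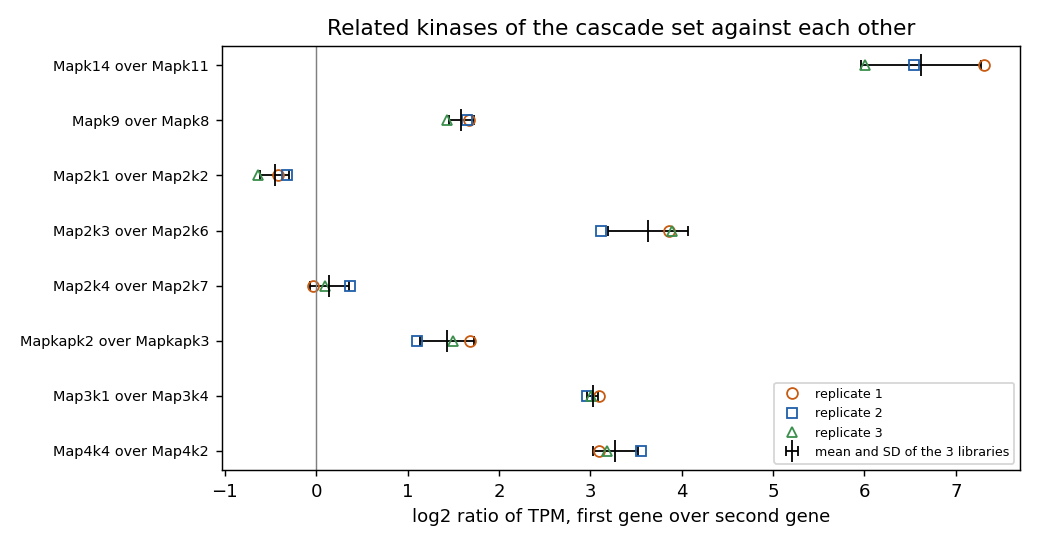
Log2 ratio of TPM within pairs of related kinases in each library, with the mean and SD of the 3 libraries. Only Map2k4 over Map2k7 lies on both sides of 0, and Mapk14 over Mapk11 is farthest from it.

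For such pairs, an exact two-sided sign-flip test over 3 libraries cannot give a p below 0.25. This exact test gave p = 0.25 (0.281 after Benjamini-Hochberg adjustment over the 9 pairs tested) for every pair plotted except Map2k4 over Map2k7, where p = 0.5. In each of the others the direction was shared by all 3 libraries.

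Scaled for library size, the cascade genes were called as differing between the libraries at a share near that of all genes. Most differences were small. A chi-square test against counting error, adjusted over all genes, called 29 of the 42 genes with a mean count of at least 10 (69.0%), against 67.9% of all 13237 genes tested and 69.1% of the protein-coding ones among them. With a mean count of at least 100 it called 28 of 39 (71.8%), against 75.4% of all such genes, and with at least 500 it called 23 of 31 (74.2%), against 82.9%. With replicate 2 left out the count fell to 17 of 42 (40.5%), against 33.4% of all genes. The median ratio of highest to lowest library was 1.17 for the cascade genes, 1.27 for all tested genes and 1.25 for the protein-coding ones. With a mean count of at least 500 it was 1.14 for the cascade genes and 1.20 for all genes. Ratios of 1.5 or more occurred in 2 of the 42 genes, Mapk11 and Map3k6 (4.76%), against 27.2% of all tested genes. Among genes averaging at least 500 counts the number was 0 of 31 for the cascade and 618 of 7038 for all genes (8.78%). The median deviation of the cascade genes from their own means was -0.0055, 0.0073 and -0.022 on the log2 scale in replicates 1, 2 and 3. Over all tested genes it was -0.016, 0.032 and -0.0083. The cascade genes were highest in replicate 1 in 12 cases, in replicate 2 in 17 and in replicate 3 in 13, against 26.2%, 44.3% and 29.5% of all tested genes.

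Mapk14 was nearly the same in every library once scaled, at 132, 130 and 131 CPM (adjusted p = 0.824), although its TPM was highest in replicate 2. Mapkapk2 differed between libraries, at 239, 163 and 188 CPM (adjusted p = 8.37e-108). Replicate 1 was highest and replicate 2 lowest. Gm37084, an unvalidated transcript model inside Mapkapk2 on the same strand, had 974, 262 and 1573 counts, so it too was lowest in replicate 2. The part of these reads, and of the stromal RNA of replicate 1, in the Mapkapk2 difference was not tested.

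Mapkapk5 was highest in replicate 2, at 22.9, 31.2 and 22.3 CPM (adjusted p = 6.88e-17). Without replicate 2 its adjusted p was 0.779. Map4k4 was lowest in replicate 1, at 135, 173 and 161 CPM. The highest dispersion estimates among called members averaging at least 100 counts belonged to Map3k6 (biological coefficient of variation 32.3%), Map2k6 (30.0%) and Mapk1ip1 (23.8%), which are also among the least abundant of those genes. Map3k6 lost its call without replicate 3 (adjusted p = 0.63). Map2k6 lost its call without replicate 2 (adjusted p = 0.923) and without replicate 3 (adjusted p = 0.0521). Mapk1ip1 lost its call without replicate 2 (adjusted p = 0.394) and without replicate 3 (adjusted p = 0.102). Mapk11 lost its call without replicate 1 (adjusted p = 0.237) and without replicate 3 (adjusted p = 0.0784).

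**Figure D3:**
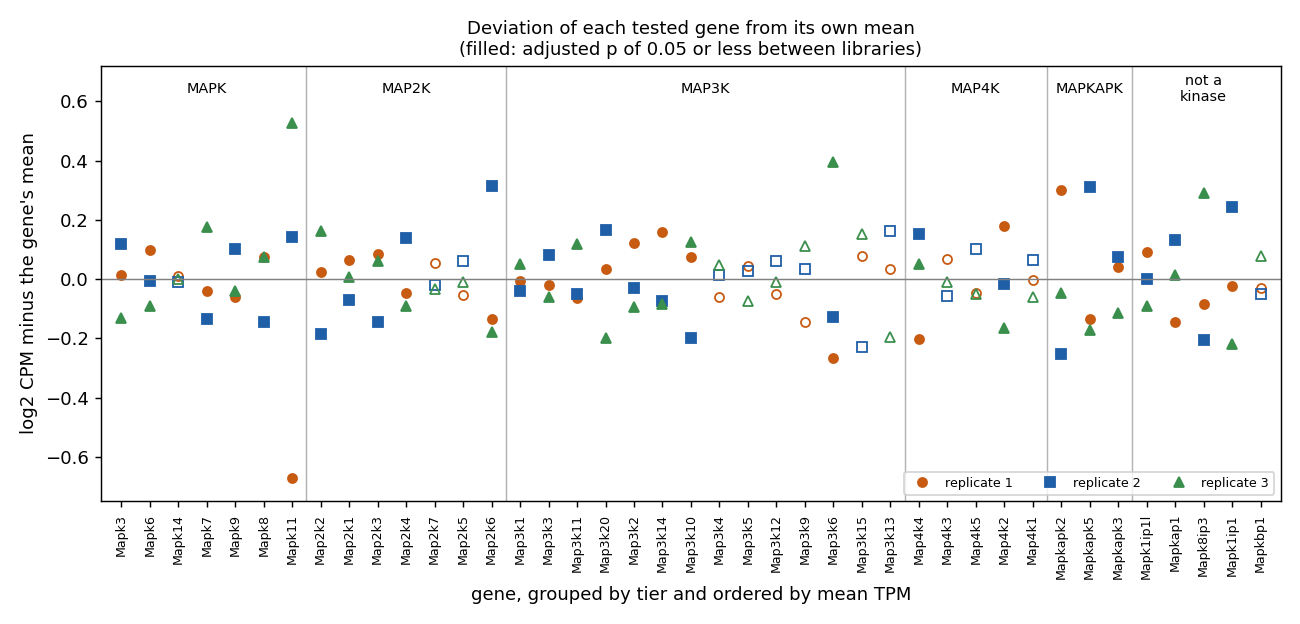
Deviation of the log2 CPM of the tested genes from their own means in replicates 1, 2 and 3. Filled symbols mark genes called between libraries. Most deviations are small beside those of Mapk11, Map3k6, Map2k6, Mapkapk5, Mapkapk2 and Mapk8ip3.

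Alternative forms of the MAP kinases themselves could be followed through coding exons that replace each other. In Mapk14, Mapk9 and Mapk8, some annotated coding transcripts hold an upstream exon, others a downstream exon of equal length, and none both. Coding transcripts with neither exon, such as Mapk14-206 (9.28% of the gene's TPM in replicate 2 and listed at 0 in the others), are outside the shares below. These pairs were chosen after transcript values were seen. The exons are shown because the choice between them changes the kinase domain, and capitals mark the bases that differ within a pair.
Mapk14 upstream exon: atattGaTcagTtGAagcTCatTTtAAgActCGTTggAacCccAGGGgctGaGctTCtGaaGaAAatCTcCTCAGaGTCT
Mapk14 downstream exon: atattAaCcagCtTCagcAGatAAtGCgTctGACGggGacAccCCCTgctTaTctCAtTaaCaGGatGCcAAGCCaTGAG
Mapk9 upstream exon: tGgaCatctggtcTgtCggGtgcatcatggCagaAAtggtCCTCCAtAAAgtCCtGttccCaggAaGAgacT
Mapk9 downstream exon: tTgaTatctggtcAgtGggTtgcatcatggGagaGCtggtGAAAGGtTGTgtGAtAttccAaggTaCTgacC
Mapk8 upstream exon: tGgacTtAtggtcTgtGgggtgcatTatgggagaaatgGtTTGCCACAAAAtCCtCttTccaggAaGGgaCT
Mapk8 downstream exon: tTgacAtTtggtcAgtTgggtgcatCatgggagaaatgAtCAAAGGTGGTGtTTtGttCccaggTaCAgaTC
On mm10 the Mapk14 exons are chr17:28737011-28737090 and chr17:28740680-28740759 on the plus strand, the Mapk9 exons chr11:49873836-49873907 and chr11:49874264-49874335 on the plus strand, and the Mapk8 exons chr14:33390673-33390744 and chr14:33390242-33390313 on the minus strand. The Mapk14 exons share 39 of 80 bases (48.8%), the Mapk9 exons 47 of 72 (65.3%) and the Mapk8 exons 45 of 72 (62.5%).

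Each gene favoured 1 exon, and not the same one. In Mapk14 the transcripts with the upstream exon held 90.3%, 90.1% and 89.6% of the TPM of both kinds in replicates 1, 2 and 3. In Mapk9 it was the downstream exon that held 95.3%, 96.9% and 94.9%. Mapk8 used both, with 56.4%, 65.4% and 65.6% on the downstream exon. The second transcript table gave means of 89.2% upstream for Mapk14, 93.3% downstream for Mapk9 and 72.3% downstream for Mapk8. The favoured exon was the same in both tables, although each mean differed between them by more than its SD. The gap was widest for Mapk8, whose share had an SD of 5.24 percentage points in the first table and rests on levels between 0.92 and 2.34 TPM per exon.

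**Figure D4:**
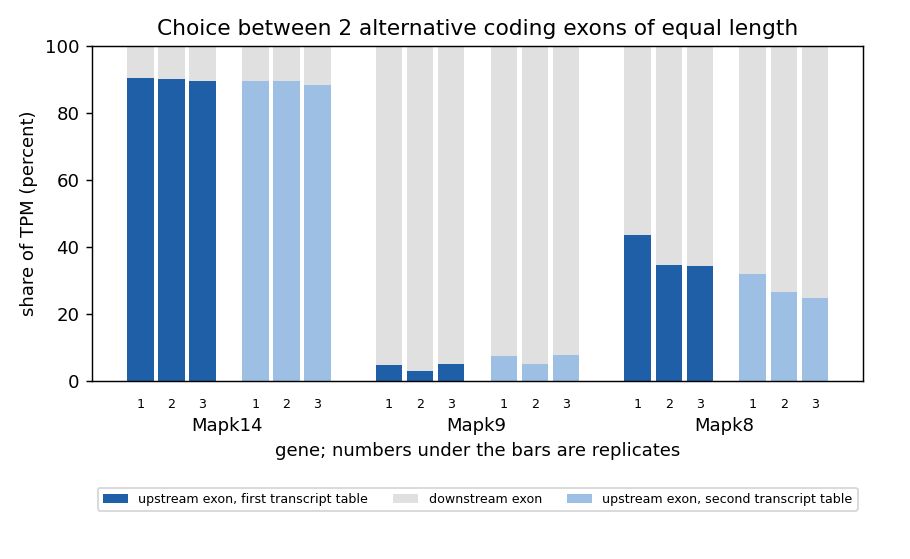
Share of TPM in transcripts with the upstream exon, of transcripts with either exon, for Mapk14, Mapk9 and Mapk8 in each replicate and in both transcript tables. Mapk14 is near 90% in every bar, Mapk9 is under 8% and Mapk8 lies between.

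Of the 17 genes at 10 TPM or more, all had a protein-coding leading transcript, 5 gave it at least 90% of the gene's TPM (Mapkapk2, Map2k1, Map3k3, Map2k3 and Mapkapk3) and 6 under 50% (35.3% of them, or 23.5% without replicate 3). Among them were Mapk14, Map4k4, Mapkapk5, Mapkap1 and Mapk7. The 2 transcript tables named the same leading transcript for 14 of the 17 genes, and Mapk14 and Mapkap1 were among the exceptions.

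Mapk14-203, whose coding sequence of 849 bases is shorter than the 1080 bases of Mapk14-202, held 46.6%, 54.2% and 31.3% of the gene's TPM, while Mapk14-202 held 43.1%, 25.1% and 54.4%. The order of these forms thus differed between libraries, although both carry the same upstream exon. In the second transcript table it differed too, but Mapk14-203 led only in replicate 2 (41.1% against 21.8%). There Mapk14-202 led in replicate 1 (57.4% against 26.1%), so the order within replicate 1 depended on the table. Map4k4-213 (42.4% ± 6.60) and Map4k4-202 (35.6% ± 1.47) have coding sequences of 3663 and 3714 bases.

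Map3k20 was divided between its forms in much the same way in every library. Its short form Map3k20-204, with 1362 coding bases, held 69.0%, 69.9% and 66.1%, and its long form Map3k20-201, with 2406 coding bases, held 29.6%, 29.7% and 32.8%. The second table gave means of 65.3% and 31.0%. The long form, ZAKα, is the one known to sense ribosomes.

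Some of the RNA of these genes was in transcripts annotated as a type other than protein-coding. Map3k11-204, annotated as a target of nonsense-mediated decay, held 27.3%, 12.7% and 29.8% of the Map3k11 TPM, lowest in replicate 2. Mapkapk5-206, a retained-intron transcript, averaged 15.7% of Mapkapk5, and Map3k1-205, also a retained intron, held 17.9%, 16.8% and 17.7% of Map3k1. In the second transcript table these 3 transcripts held less, with means of 8.59% for Map3k11-204, 5.75% for Mapkapk5-206 and 6.17% for Map3k1-205, against 23.2%, 15.7% and 17.5% in the first. At 10 TPM or more, 16 genes had an annotated transcript of a type other than protein-coding. Of these, 11 had their highest protein-coding share in replicate 2, against 48.9% of 3322 such genes. The median protein-coding share was 93.2%, 97.2% and 93.9% in replicates 1, 2 and 3 for the cascade genes, against 97.0%, 98.1% and 96.5% for all such genes.

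**Figure D5:**
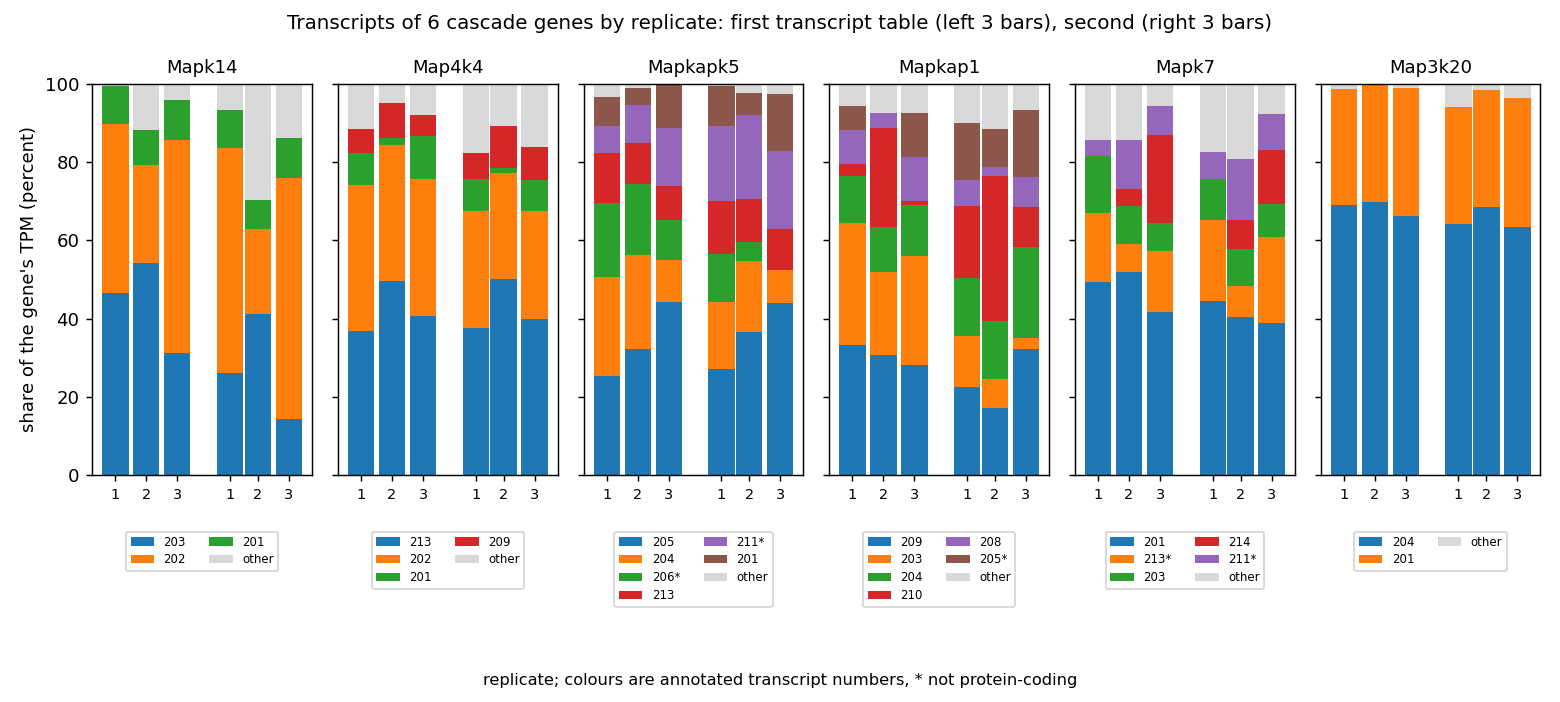
Share of each gene's TPM in its annotated transcripts, by replicate, for 5 genes with a leading share under 50% and Map3k20. Bars on the left are from the first transcript table and bars on the right from the second, and the Map3k20 bars are much alike.

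Gene levels from the 2 transcript quantifications could be compared for the 38 genes at 1 TPM or more. The second was lower for messenger RNA as a whole, by a median log2 ratio of -1.34, -0.69 and -2.03 in replicates 1, 2 and 3 over all protein-coding genes and of -1.33, -0.70 and -2.01 over the cascade genes. Relative to that median, all 38 genes lay within 0.5 on the log2 scale, against 97.3% of 9381 genes. The extremes were Map2k7 at -0.33 and Mapkap1 at 0.40.

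Of 41 other genes that act with the cascade, 34 averaged at least 1 TPM and 24 at least 10 TPM. They passed the test between libraries in 27 of 38 cases (71.1%), against 67.9% of all genes tested, and were highest in replicate 2 in 26 of 38, against 44.3% of all genes tested. Among kinases at the MAP3K level, Taok3 and Taok1 averaged 29.1 and 16.3 TPM. The RAF kinases Araf and Braf averaged 14.9 and 8.40 TPM, each below Map3k1. Mink1, a relative of Map4k4, averaged 14.7 TPM, and Tnik 0.08.

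On the RAS side, the adaptor Grb2 had 89.7, 244 and 94.0 TPM in replicates 1, 2 and 3. Scaled for library size, Grb2 was closer between libraries, at 391, 443 and 367 CPM. Nras averaged 31.9 TPM. Mknk2 and Mknk1, kinases that ERK and p38 activate, averaged 45.9 and 36.1 TPM, close to Mapkapk2. Nlk, an atypical MAP kinase, averaged 5.63 TPM. The scaffolds Arrb2 and Lamtor3 averaged 59.6 and 38.3 TPM. Of transcription factors that MAP kinases phosphorylate, Mef2c and Mef2a averaged 28.5 and 20.7 TPM.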

How the data were processed

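For each of 3 libraries the authors deposited a gene table and 2 transcript tables on mm10 with GENCODE M21, per the files' notes. Expected counts, TPM, a score for the posterior spread of each count and the percent of a gene held by each transcript are columns of the deposited tables, per the file headers. Neither the aligner, the quantifiers nor the strand setting is named in the labels or notes. Expected counts were rounded and scaled by TMM (edgeR 4.0.16, R 4.3.3). Genes with a mean count of at least 10 were tested between libraries by chi-square against counting error, Benjamini-Hochberg adjusted over all genes at 0.05. Such a p shows that libraries differed beyond counting error and nothing about a condition. Dispersions were edgeR's tagwise estimates. Deviations used log2 CPM with a prior count of 0.5, tier medians a pseudocount of 1. The test was checked on simulated counts that held counting error only, so the check does not cover rounded expected counts or shared reads. In the data, 9 members fell below its count minimum. Limits set by 3 counts cover counting error only.

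The rule for named genes took every gene of a pair, the 4 highest of each tier, the 3 most dispersed called genes, and genes with a divided or disputed leading transcript. Other members are given by mean, range or count, and the other pathway genes by the 2 highest of each list (Araf and Braf were named after their values were seen). Some genes counted in the totals are not reported here by name. Members and lists were chosen with earlier results of these data known. Sequences were read from the GENCODE M21 transcripts on mm10, using the longest coding sequence for the activation loops. Alternatives were DESeq2 (1.42.0) size factors, other filters, pseudocounts and scalings, the second transcript table and each library left out.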

Additional observations from a re-analysis of the deposited data

How the results depend on the processing

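Precision was limited by having 3 libraries, and no count between 0 and 3 could be read as a level. No paired comparison of conditions was possible because there is 1 group, and pairing was only of genes within a library. Tier medians moved with the scale. With a pseudocount of 0.1 they were 1.61 for MAP kinases, 1.32 for MAP3Ks and 1.28 for MAP4Ks. Rescaled to protein-coding genes they were 3.60, 5.22, 3.33 and 3.29 for MAP kinases, MAP2Ks, MAP3Ks and MAP4Ks, as CPM 4.07, 5.37, 3.94 and 4.04, and by the second transcript quantification 1.24, 2.28, 1.06 and 1.01. Over genes at 0.5 TPM or more they were 4.59 for MAP kinases and 2.34 for MAP3Ks, so MAP kinases then stood above MAP2Ks. The number at 10 TPM or more was 30 when rescaled and 8 in the second table. Calls between libraries numbered 17 to 24 with 1 library left out. They covered 57.1%, 40.5% and 47.6% of the tested members without replicate 1, 2 or 3, against 56.7%, 33.4% and 53.0% of all genes. The median deviation in replicate 2 was -0.026 as rescaled TPM and 0.071 in the second table, and in replicate 3 it was 0.019 and -0.061. As rescaled TPM, the median over all nuclear protein-coding genes tested was -0.0037 in replicate 2 and 0.013 in replicate 3. In the second table, the median over all genes tested was 0.065 in replicate 2 and -0.024 in replicate 3. The log2 ratio of Map2k1 over Map2k2 was 0.10 in expected counts, which are not per length. The share of genes with a leading transcript under 50% was 23.5% to 35.3% with 1 library left out. Added after the data were seen, the second table gave upstream-exon shares of 89.2% for Mapk14, 6.74% for Mapk9 and 27.7% for Mapk8. The cause of these shifts was not tested.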
